A study of Homo sapiens with 18 samples.

Results

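The parental HAP1 line, labelled WT, was compared after 6 h without amino acids and serum and in full medium, across all expressed genes. The comparison rests on 6 of the 18 RNA-seq libraries of the series, chosen by their titles and treatment labels. In 3 of them the medium had been replaced 6 h earlier by EBSS, Earle's mixture of salts and glucose, which lacks amino acids and serum. In the other 3 WT cells grew in Iscove's modified Dulbecco's medium with antibiotics (penicillin and streptomycin) and with fetal calf serum at 10%, heat-inactivated, called full medium here. HAP1 cells are an adherent, near-haploid human line that descends from KBM-7, a line of chronic myeloid leukaemia. The remaining 12 libraries come from an ATG7KO line and a line labelled RB1CC1KO under the same media, 3 libraries a group, and served to estimate the spread and to test where responses differed. Each genotype is 1 line and the starvation has 1 time point. The loss of amino acids and the loss of serum cannot be told apart, nor can either be told apart from the change of the whole medium. The labels speak of independent biological replicates.

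When amino acids run short, uncharged transfer RNAs activate the kinase GCN2, which phosphorylates the translation factor eIF2, so that most translation slows while the transcription factor ATF4 is made. The kinase complex mTORC1, which drives ribosome production and holds back autophagy, loses its amino acid signal at the lysosome. Loss of serum lowers insulin and growth factor signalling through PI3K and AKT, and FOXO transcription factors then enter the nucleus.

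Reads in genes ranged from 14765145 to 16858058 in the EBSS libraries and from 11994110 to 19073798 in the full medium libraries. Reads of the mitochondrial genome took 2.19 ± 0.181% after EBSS and 3.83 ± 0.386% in full medium (SD, n = 3 each). The 10 most abundant genes took 3.56 ± 0.0611% after EBSS and 5.01 ± 0.203% in full medium. Both shares separated the groups without overlap, and an exact two-sided permutation test over the libraries gave p = 0.1 for each, the smallest p that 3 against 3 libraries allow. Reads outside annotated genes took 11.7 ± 2.19% after EBSS and 12.2 ± 1.65% in full medium (exact permutation p = 0.8). Of 20 haematopoietic markers, 8 had no read in any WT library, among them PTPRC, CD3E, SPI1, GATA1 and HBB. The summed level of that list was 46.8, 41.2 and 42.5 CPM after EBSS, against 78.0, 84.7 and 75.1 CPM in full medium. Mesenchymal markers summed to 1132, 1100.1 and 1132 CPM after EBSS, against 831, 794 and 782 CPM in full medium, with LUM, DCN and FAP at 0 reads. Vimentin (VIM) gave most of that sum, with 42343 reads over the 3 EBSS libraries and 24547 over the 3 full medium libraries. Of 8 mesenchymal markers tested 2 rose, VIM (0.82 ± 0.06) and fibronectin (FN1, 0.79 ± 0.06), and 3 fell, among them COL1A1 (-0.46 ± 0.11) and SPARC (-0.26 ± 0.07), with a median of -0.16. In the haematopoietic list 7 markers were tested, of which 2 rose and 3 fell, with a median of -0.02. TAL1 (-1.11 ± 0.09), KIT (-1.31 ± 0.15) and RUNX1 (-0.80 ± 0.13), regulators of blood cell fate, fell. CD14 (2.73 ± 0.59), a monocyte marker, was among those that rose, from a low level. TAL1 gave the largest part of the summed level of this list, with 792 reads over the 3 EBSS libraries and 1762 over the 3 full medium libraries. Epithelial markers summed to 117, 119.7 and 124 CPM after EBSS and 124, 116 and 129 CPM in full medium, and endothelial and neural markers to 789, 769 and 898 CPM after EBSS and 883, 838 and 889 CPM in full medium. SOX2 (32237 reads after EBSS, 28881 in full medium) and NES (6198 and 8251 reads) gave most of the endothelial and neural sum. In that list PECAM1, TEK, S100B and RBFOX3 had no read in any WT library. The part of these shares and markers in the results was not tested. In bulk RNA, fewer cells of a kind and less RNA per cell cannot be told apart.

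The condition is marked by 4 genes: EGR1, DDIT4, STC2 and ARRDC3. Their promoters and that of CHAC1, an amino acid response gene, are printed because these genes stand for the condition throughout. The sequences are RefSeq GRCh38.p14 and run 5′ to 3′ on the gene's strand, from 250 bases before to 50 bases after the gene's start. Capitals mark CArG boxes, the sites of the serum response factor, in EGR1. They mark TGATGNAAN, a composite site of ATF4 and C/EBP factors, in CHAC1, and CCAAT, the site of the factor NF-Y, in the others, each on either strand.
EGR1 (chr5:138465229-138465528, plus strand): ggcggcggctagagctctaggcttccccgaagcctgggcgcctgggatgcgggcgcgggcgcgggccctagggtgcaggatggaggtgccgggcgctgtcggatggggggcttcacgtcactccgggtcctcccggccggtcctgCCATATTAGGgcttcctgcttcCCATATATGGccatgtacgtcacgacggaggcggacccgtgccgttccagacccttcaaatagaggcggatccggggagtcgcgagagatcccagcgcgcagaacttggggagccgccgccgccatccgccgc
DDIT4 (chr10:72273674-72273973, plus strand): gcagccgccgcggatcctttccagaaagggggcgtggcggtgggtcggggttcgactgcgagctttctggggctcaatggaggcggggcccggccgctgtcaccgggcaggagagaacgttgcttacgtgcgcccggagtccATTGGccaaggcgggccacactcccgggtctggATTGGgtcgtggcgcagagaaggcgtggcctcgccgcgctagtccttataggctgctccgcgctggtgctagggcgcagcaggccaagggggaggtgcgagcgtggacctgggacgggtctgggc
STC2 (chr5:173328365-173328664, minus strand): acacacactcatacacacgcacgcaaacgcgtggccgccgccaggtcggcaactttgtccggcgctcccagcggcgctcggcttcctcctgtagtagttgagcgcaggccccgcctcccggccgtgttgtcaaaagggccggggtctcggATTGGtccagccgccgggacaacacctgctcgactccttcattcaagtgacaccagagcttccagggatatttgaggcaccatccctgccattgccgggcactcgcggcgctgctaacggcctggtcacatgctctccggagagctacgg
ARRDC3 (chr5:91383268-91383567, minus strand): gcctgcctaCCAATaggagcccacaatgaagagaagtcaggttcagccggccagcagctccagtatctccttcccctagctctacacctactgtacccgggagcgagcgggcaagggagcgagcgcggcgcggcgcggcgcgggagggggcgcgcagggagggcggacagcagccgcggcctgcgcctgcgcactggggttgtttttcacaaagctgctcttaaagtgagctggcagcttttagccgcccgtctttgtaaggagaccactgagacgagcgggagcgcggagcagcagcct
CHAC1 (chr15:40953221-40953520, plus strand): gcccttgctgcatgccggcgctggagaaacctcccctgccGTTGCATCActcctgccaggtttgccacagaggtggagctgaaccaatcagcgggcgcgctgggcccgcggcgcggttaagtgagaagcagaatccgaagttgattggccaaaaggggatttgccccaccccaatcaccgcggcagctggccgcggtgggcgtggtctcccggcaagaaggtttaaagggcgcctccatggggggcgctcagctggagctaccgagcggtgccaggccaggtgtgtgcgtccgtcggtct

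EGR1 (ENSG00000120738), an immediate early zinc finger transcription factor, had 1636, 1778 and 1972 CPM after EBSS, against 8.48, 6.00 and 8.82 CPM in full medium. DDIT4 (ENSG00000168209), which restrains mTORC1 through the TSC complex, had 338, 317 and 361 CPM after EBSS, against 7.46, 6.35 and 8.43 CPM in full medium. STC2 (ENSG00000113739), a secreted glycoprotein and ATF4 target, had 672, 736 and 704 CPM after EBSS, against 62.8, 61.3 and 63.1 CPM in full medium. In these 3 genes every starved library lay far above every fed one. ARRDC3 (ENSG00000113369), an alpha-arrestin that directs membrane proteins to degradation, had 3.97, 3.44 and 3.40 CPM after EBSS, against 55.7, 65.6 and 61.9 CPM in full medium, with every starved library below every fed one. CHAC1, which breaks down glutathione, had 162, 141 and 172 CPM after EBSS, against 8.70, 5.61 and 5.67 CPM in full medium, again without overlap. Levels are TMM-scaled CPM, the counts of a gene relative to the scaled library size. Log2 fold changes are EBSS over full medium from edgeR's quasi-likelihood fit, with a standard error derived from its F statistic, and a gene is said to rise or fall at a Benjamini-Hochberg adjusted p below 0.05. The log2 fold change was 3.50 ± 0.06 (adjusted p = 4.64e-31) in STC2 and -4.09 ± 0.12 (adjusted p = 6.82e-26) in ARRDC3.

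**Figure D1:**
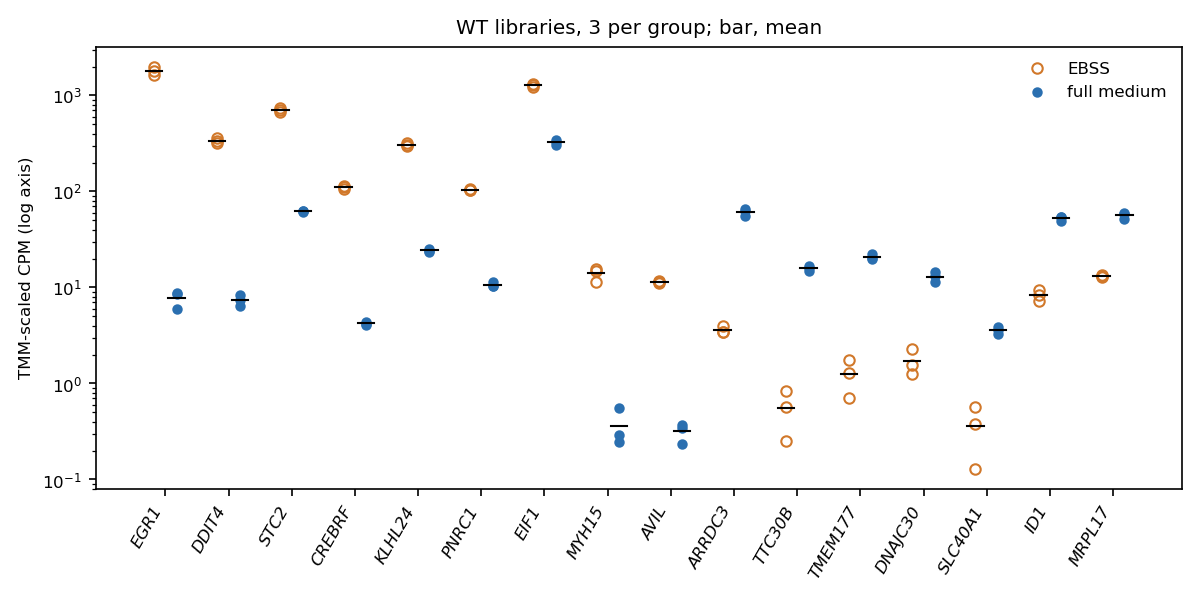
Level of 16 genes in each WT library, in TMM-scaled CPM on a log axis; open orange circles are the 3 EBSS libraries, filled blue circles to their right the 3 full medium libraries, and bars the means. The EBSS libraries of EGR1 lie between 1636 and 1972 CPM, and those of ARRDC3 at or below 3.97 CPM, where its full medium libraries start at 55.7 CPM.

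Promoter motifs were counted over whole sets of genes to put these sites in proportion. Promoters were matched for 10439 protein-coding genes tested, of which 877 rose and 819 fell by at least 2-fold. TGATGNAAN stood in 3.76% of promoters of genes that rose, 1.47% of those that fell, 1.6% of all tested and 3.67% of the 27305 promoters in the table. The forkhead site GTAAACA stood in 3.76% (rose), 2.2% (fell), 2.2% (tested) and 3.41% (table). CArG boxes stood in 1.6% (rose), 0.733% (fell), 1.09% (tested) and 1.29% (table). The ETS-type site CCGGAAGT had its low share among genes that rose, with 3.42% (rose), 9.16% (fell), 8.59% (tested) and 4.44% (table). CCAAT was common in every set, with 40.4% (rose), 36.6% (fell), 36.5% (tested) and 35.7% (table). The E-box CACGTG had 12% (rose), 9.28% (fell), 10.1% (tested) and 7.43% (table), and the cAMP response element TGACGTCA 3.42% (rose), 1.95% (fell), 3.3% (tested) and 1.98% (table). Both strands were searched, and overlapping motifs were counted separately. A match is a run of letters in this window and shows no binding.

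The first question was how far the response reached. Of 15179 genes tested, 9788 were called (64.5%): 4923 rose (32.4%) and 4865 fell (32.1%), and the starved and fed libraries did not overlap in 67% of genes. About 1 in 3 genes was thus called in each direction, and the counts in gene lists stand against that background. Genes called and changed at least 2-fold were 1480 higher (9.75%) and 1507 lower (9.93%). The median log2 fold change of all genes was -0.02, and higher genes made up 50.3% of the calls. With upper-quartile scaling the median was -0.17 and higher genes made up 37.4% of the calls, so the direction of small changes depends on the scaling.

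Beyond the stress and immediate early genes, many of the strongest rises were in genes that fed cells barely expressed. MYH15, a myosin heavy chain gene, had 14.8, 15.7 and 11.5 CPM after EBSS, against 0.292, 0.248 and 0.551 CPM in full medium. AVIL, which encodes the actin-binding protein advillin, had 11.7, 11.2 and 11.5 CPM after EBSS, against 0.365, 0.347 and 0.236 CPM in full medium. CREBRF, a negative regulator of the stress factor CREB3, had 112, 114 and 106 CPM after EBSS, against 4.09, 4.17 and 4.41 CPM in full medium. The first 2 genes stood below 1 CPM in every fed library. In all 3 the groups did not overlap, which the rule that named them required. The exchange factor gene MCF2 (4.90 ± 0.43), IQCN (4.79 ± 0.32), the bile acid conjugating enzyme gene BAAT (4.66 ± 0.43), CCDC17 (4.45 ± 0.41), the muscle glycogen phosphorylase gene PYGM (4.44 ± 0.18), LRRC66 (4.44 ± 0.28) and the iron hormone gene HAMP (4.36 ± 0.36) rose as well. BAAT had 133 reads over the 3 EBSS libraries and 5 over the 3 full medium libraries, so its fold change rests on few reads in full medium. LTA, a cytokine gene of the same set, had 112 reads after EBSS and 1 read in full medium.

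The strongest falls included genes of the cilium and of mitochondria. TTC30B (-4.83 ± 0.21) and TTC30A (-3.47 ± 0.25), which act in intraflagellar transport, are close copies, and reads may have been shared or lost between them. DNAJC30, a mitochondrial J-domain protein, had 1.56, 1.25 and 2.31 CPM after EBSS, against 14.4, 13.1 and 11.5 CPM in full medium. SLC40A1, the iron exporter ferroportin, had 0.567, 0.375 and 0.128 CPM after EBSS, against 3.58, 3.87 and 3.31 CPM in full medium. The starved libraries of both genes lay below all fed ones, as the rule that named them required. The adenosine receptor gene ADORA1 (-3.34 ± 0.37), the interferon-induced IFIT1 (-3.21 ± 0.35), the peptide hormone gene APLN (-2.93 ± 0.28), the zinc finger genes ZBTB47 (-3.17 ± 0.24) and ZNF70 (-2.95 ± 0.18), B3GALT9 (-3.40 ± 0.21), FDXACB1 (-3.04 ± 0.32) and LRATD1 (-3.03 ± 0.35) fell too. The rule that named these genes took only genes whose groups did not overlap, as was seen in 67% of all genes tested.

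**Figure D2:**
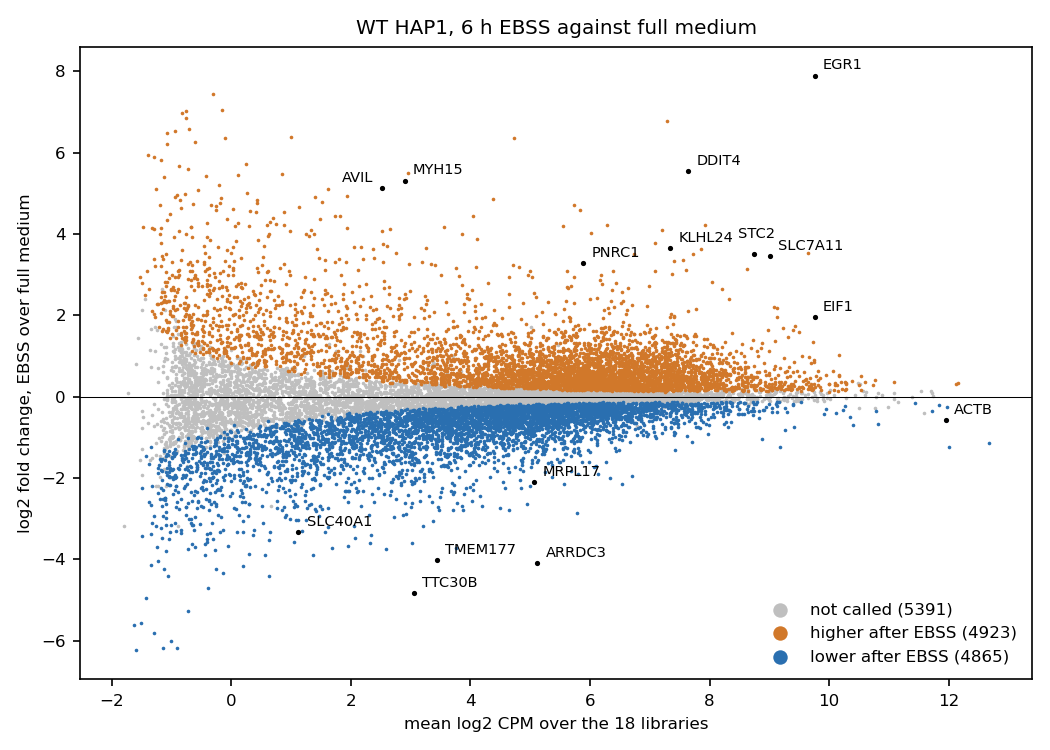
Log2 fold change of EBSS over full medium in WT against the mean log2 CPM over the 18 libraries, 1 point per gene tested. Orange points are the 4923 genes that rose, blue points the 4865 that fell and grey points the rest, and named points are genes of the text.

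Several of the genes that rose from a low level lie close behind an expressed gene on the same strand. Of the 20 protein-coding genes with the strongest rises, 6 start within 5 kb of the end of the nearest tested gene upstream on their strand, against 2 of the 20 with the strongest falls and 10.6% of the protein-coding genes whose mean log2 CPM reached 1. Among those with a mean log2 CPM of 1 to 3 the share was 14%. In WT all 6 genes averaged below 1 CPM in full medium, under the level that the rule required of the mean. They were thus chosen by their rise, whereas the genes behind the 10.6% and 14% were chosen by level only. These shares are therefore no matched background, and whether 6 of 20 exceeds what such a choice gives was not tested. AVIL starts 1.22 kb behind CTDSP2, HAMP 0.895 kb behind USF2, LRRC66 3.09 kb behind SGCB, CCDC17 3.25 kb behind GPBP1L1, BAAT 4.11 kb behind MRPL50 and PYGM 4.31 kb behind SF1. Distances are from GENCODE 29 on GRCh38. In full medium CTDSP2 stood at 113 CPM and SF1 at 478 CPM, far above the genes behind them.

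The same distances were examined over all protein-coding genes. Among protein-coding genes with a mean below 2 CPM, 219 of 516 within 5 kb behind an upstream neighbour could be tested, and 106 rose and 31 fell, with a median log2 fold change of 0.86. Their summed level was 259, 254 and 280.5 CPM after EBSS, against 203, 191 and 196 CPM in full medium. At 5 to 20 kb the median was 0.46 (86 rose and 30 fell of 233), at 20 to 100 kb -0.18 (55 and 93 of 366) and beyond 100 kb -0.37 (93 and 168 of 605). As ratios of EBSS over full medium, the summed levels stood at 1.34, 1.12, 0.80 and 0.76 from the nearest to the farthest class. With upper-quartile scaling the 4 medians were 0.71, 0.31, -0.33 and -0.52. Low genes within 5 kb of a downstream neighbour had a median of -0.08, and those within 5 kb of an upstream neighbour on the opposite strand -0.26. Genes at 2 CPM or more showed no such gradient, with medians from -0.06 to 0.04 over the 4 distances. The median of low genes within 5 kb was 0.90 in ATG7KO and 0.98 in the RB1CC1KO-labelled line. Genes that passed the filter on low counts only because they rose are part of these counts, and the summed levels cover all genes of the class. Gene-level counts cannot tell reads that run on from the gene upstream from messages that start at the gene itself, and which of them was measured was not tested.

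**Figure D3:**
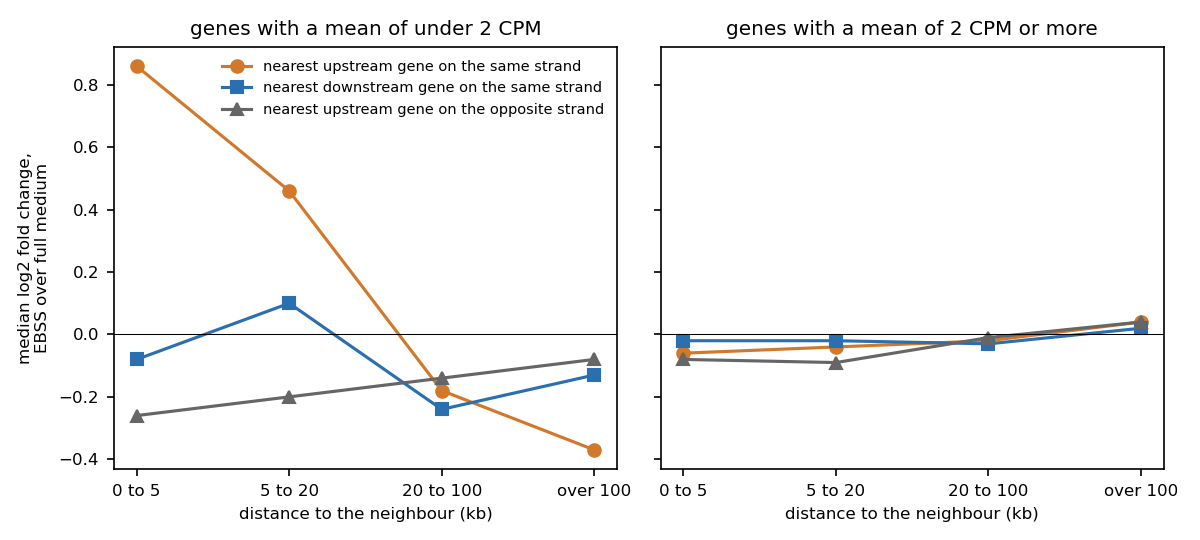
Median log2 fold change of EBSS over full medium in WT by the distance in kb to the nearest tested neighbour, for genes with a mean under 2 CPM (left) and the others (right). The orange line (upstream neighbour on the same strand) starts at 0.86 and ends at -0.37 in the left panel; blue is a downstream neighbour on the same strand and grey an upstream neighbour on the opposite strand.

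The response also differed by exon number. Of 212 protein-coding genes annotated with 1 exon, 20.8% rose and 50.9% fell, with a median of -0.37. Of 613 genes with 31 or more exons, 52% rose and 13.5% fell, with a median of 0.24. The classes between them had medians of -0.37 for 2 exons, -0.23 for 3 to 4, -0.12 for 5 to 8, 0.02 for 9 to 15 and 0.14 for 16 to 30. Called or not, 34% of the 1-exon genes and 1.79% of those with 31 or more exons were at least 2-fold lower. At least 2-fold higher, again called or not, were 15.1% and 8.32%. Of the 52 1-exon genes above the median level, as many were at least 2-fold higher as at least 2-fold lower, called or not (9.62% each). Within the fifth of genes with the longest exon sequence the median was -0.31 for 1 to 4 exons and 0.21 for 9 or more. Among genes above the median level the values were -0.29 for 1 exon and 0.07 for 2 exons, against 0.29 for 31 or more. The 1-exon genes include abundant mitochondrially encoded ones such as MT-ND1 and MT-ATP6, and their part in these values was not tested. With upper-quartile scaling the medians were -0.53 for 1 exon, -0.01 for 16 to 30 and 0.09 for 31 or more, so the sign of the middle classes depends on the scaling. Under it 243 genes with 31 or more exons rose and 133 fell, against 319 and 83 with TMM. In ATG7KO the medians for 1 exon and for 31 or more were -0.63 and 0.33, and in the RB1CC1KO-labelled line -0.83 and 0.31.

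**Figure D4:**
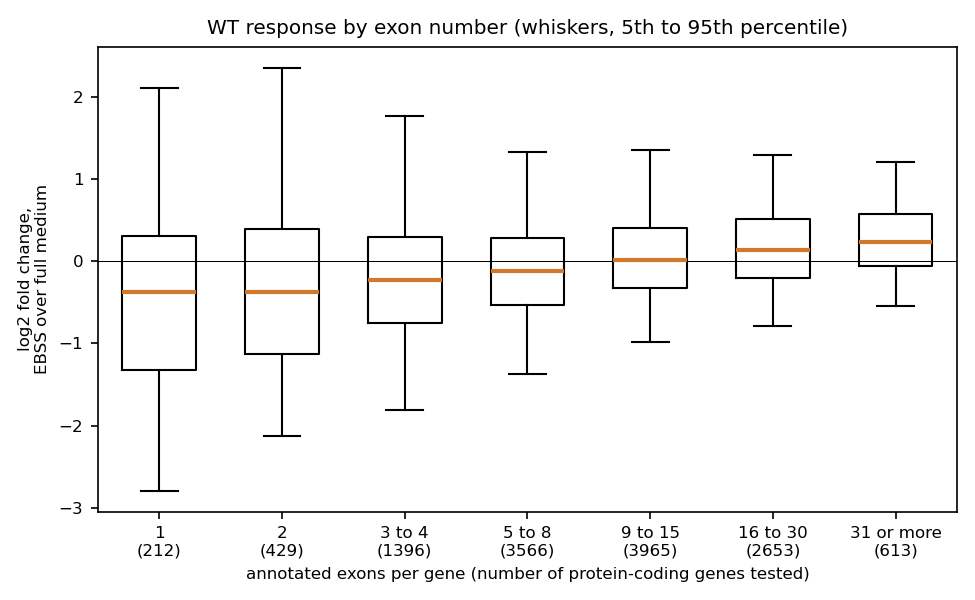
Log2 fold change of EBSS over full medium in WT by the number of annotated exons, for protein-coding genes; boxes span the quartiles, the orange line is the median and whiskers reach the 5th and 95th percentiles. The medians start at -0.37 for 1 exon and end at 0.24 for 31 or more.

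Zinc finger genes named ZNF, ZSCAN, ZKSCAN or ZFP, most of which encode DNA-binding repressors, fell more often than they rose: 239 of 447 fell and 95 rose. On chromosome 19, where many stand in clusters, 117 of 195 fell (median -0.47), and on other chromosomes 122 of 252 (median -0.25). Such genes share long similar stretches, which may affect their counts. Among other gene types the median was -0.25 for lincRNAs, -0.32 for antisense RNAs and -0.41 for sense intronic RNAs. Processed pseudogenes, which share sequence with their parent genes, had a median of 0.23. With upper-quartile scaling 275 zinc finger genes fell and 71 rose, and the median of processed pseudogenes was 0.08.

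Single non-coding RNAs moved strongly. NHSL1-AS1, an antisense RNA, had 36.5, 37.5 and 37.0 CPM after EBSS, against 3.22, 2.08 and 1.65 CPM in full medium. H19, an imprinted long non-coding RNA, had 2.13, 1.69 and 1.86 CPM after EBSS, against 18.5, 16.3 and 16.1 CPM in full medium. Both moved in opposite directions, without overlap between the groups, which the rule that named them required. AC011498.6 (5.11 ± 0.37), ZNNT1 (4.15 ± 0.30), ROCK1P1 (3.64 ± 0.29) and PYY2 (3.42 ± 0.27) rose. AC068338.2 (-3.90 ± 0.34), HK2-DT (-3.73 ± 0.31), ALDH1A3-AS1 (-3.58 ± 0.38) and RHPN1-AS1 (-3.31 ± 0.37) fell. The strand setting of the counting is not given in the sources used here, so reads of antisense RNAs and of their partners cannot be told apart with certainty.

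On a scale per transcript length, in TPM, the largest rises among the genes called were in EGR1 and PSAT1. EGR1 stood at 2449 TPM after EBSS and 10.9 TPM in full medium, and PSAT1 at 1672 TPM after EBSS and 370.3 TPM in full medium. EIF1, which guards start codon choice, stood at 1500.2 TPM after EBSS and 395 TPM in full medium. The elongation factor gene EEF2 stood at 5199 TPM after EBSS and 4258 TPM in full medium, a small rise (log2 fold change 0.33 ± 0.07) in an abundant message. The glutamine carrier gene SLC1A5 stood at 1218 TPM after EBSS and 454 TPM in full medium, and the leucine carrier gene SLC7A5 at 1039.5 TPM after EBSS and 421 TPM in full medium. The actin genes ACTB (3995 TPM after EBSS, 6141 TPM in full medium) and ACTG1 (4372 TPM after EBSS, 5761 TPM in full medium) and the tubulin gene TUBB4B (659 TPM after EBSS, 1406 TPM in full medium) fell. The largest falls in TPM were in the mitochondrial ribosomal RNAs MT-RNR1 (log2 fold change -1.23 ± 0.20) and MT-RNR2 (-1.15 ± 0.15), in libraries made from polyadenylated RNA. MT-RNR1 stood at 10856 TPM after EBSS and 26178 TPM in full medium, and MT-RNR2 at 11756 TPM after EBSS and 26697 TPM in full medium. Of 13 mitochondrially encoded mRNAs 5 fell and none rose.

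Genes listed for insulin signalling, which include its brakes, mostly rose. Of 18 tested genes in a list of insulin and IGF receptors, IRS adaptors and PI3K-AKT brakes, 13 rose and 1 fell (median 0.79). KLHL24, a ubiquitin ligase adaptor placed in this list, had 317, 303 and 299 CPM after EBSS, against 23.5, 23.9 and 25.4 CPM in full medium. The adaptor GRB10 (1.26 ± 0.05), the lipid kinase subunit PIK3CA (1.63 ± 0.08), the receptor IGF2R (1.34 ± 0.07) and, named after its value was seen, the insulin receptor substrate IRS2 (2.69 ± 0.13) rose. Of 28 growth factor receptor and ERBB genes 11 rose and 10 fell, with the EGFR inhibitor ERRFI1 at 1.77 ± 0.11. Of 24 mTORC1 brakes and sensors 9 rose and 8 fell: SESN2 (3.37 ± 0.08) and TSC1 (1.43 ± 0.07) rose and SESN1 (-0.88 ± 0.10) fell. With upper-quartile scaling 9 rose and 10 fell among the receptor and ERBB genes, and 8 rose and 13 fell among the mTORC1 brakes and sensors. Of 7 alpha-arrestins and MLX factors 5 fell and none rose, with ARRDC1 (-0.81 ± 0.14) and ARRDC2 (-0.46 ± 0.12) behind ARRDC3.

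Amino acid carriers mostly rose, and carriers of other cargo did not move one way. Of 23 plasma membrane amino acid carriers 15 rose and 6 fell (median 0.79). The cystine importer SLC7A11 had 869, 853 and 876 CPM after EBSS, against 69.1, 85.4 and 83.5 CPM in full medium. The glycine carrier SLC6A9 (3.00 ± 0.09), the neutral amino acid carrier SLC1A4 (2.66 ± 0.07) and the common heavy chain SLC3A2 (2.19 ± 0.07) rose. Of 13 glucose and monocarboxylate carriers 3 rose and 6 fell: SLC2A3, a glucose carrier, rose by 2.80 ± 0.13, while SLC16A9 (-2.26 ± 0.10) and SLC16A14 (-2.73 ± 0.13) fell. Of 13 iron genes 6 rose and 7 fell, among them the transferrin receptor TFRC (-1.23 ± 0.06) and the iron importer SLC11A2 (-0.90 ± 0.08) on the falling side. Of 26 zinc and copper genes 7 rose and 11 fell, with the zinc exporter SLC30A1 at 1.20 ± 0.07. Upper-quartile scaling gave other counts for both, where 2 rose and 7 fell among iron genes and 4 rose and 13 fell among zinc and copper genes.

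Among metabolic enzymes, those of cholesterol and nucleotide synthesis fell more often than they rose. Of 24 cholesterol genes 4 rose and 15 fell, with MSMO1 at -1.56 ± 0.10. Of 23 nucleotide synthesis genes 3 rose and 9 fell, and the pyrimidine enzymes UMPS (-1.41 ± 0.08) and DHODH (-1.64 ± 0.14) were the 2 with a fall of at least 2-fold. Of 15 polyamine genes 5 rose and 3 fell, with ODC1, which starts polyamine synthesis, at -0.82 ± 0.06. Glycolytic enzymes (3 rose and 9 fell of 24), fatty acid synthesis (7 and 7 of 23) and the methionine cycle (3 and 6 of 15) had medians of -0.11, -0.02 and -0.09. Of all genes tested 32.4% rose and 32.1% fell, with a median of -0.02, and fatty acid synthesis stood near these values. Of 24 fatty acid oxidation and PPAR genes 11 rose and 5 fell: the lipid droplet coat PLIN2 (1.39 ± 0.08) rose and the carnitine enzyme CPT2 (-1.61 ± 0.08) fell. Of 25 arginine, ornithine and glutathione enzymes 7 rose and 9 fell, with GPT2 (2.64 ± 0.06) and CTH (2.42 ± 0.07) among those that rose. Of 16 retinoid genes 4 rose and 5 fell, and of 18 NRF2 targets 4 rose and 2 fell. These counts depend on the scaling. With upper-quartile scaling lower calls stayed ahead in cholesterol (0 rose and 16 fell) and nucleotide genes (2 rose and 19 fell). They stayed ahead too in glycolytic (1 rose and 18 fell) and methionine cycle genes (1 rose and 10 fell). The same held for retinoid genes (4 rose and 8 fell) and arginine, ornithine and glutathione enzymes (7 rose and 13 fell). Lower calls went ahead in fatty acid synthesis (2 rose and 11 fell) and NRF2 genes (3 rose and 8 fell). With TMM the first was even and the second had higher calls ahead. Upper-quartile scaling gave even or nearly even counts in polyamine (4 rose and 4 fell) and fatty acid oxidation genes (9 rose and 8 fell).

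Among nuclear genes for mitochondria, those of gene expression were mostly lower. Of 42 genes for mitochondrial transcription, tRNA charging and assembly, 27 fell and 7 rose (median -0.40). TMEM177, an assembly factor of cytochrome c oxidase, had 0.709, 1.75 and 1.28 CPM after EBSS, against 22.5, 19.6 and 20.2 CPM in full medium. The tRNA charging enzymes PARS2 (-2.61 ± 0.15), MARS2 (-1.60 ± 0.09) and AARS2 (-1.12 ± 0.09) followed. Of 38 mitochondrial ribosomal protein genes 22 fell and 3 rose, with MRPL17 at -2.10 ± 0.11 and MRPL24 at -1.22 ± 0.09. With upper-quartile scaling 32 fell and 3 rose in the first of these lists, and 27 fell and 0 rose in the second. Of 39 nuclear respiratory chain genes 7 fell and 3 rose, and with upper-quartile scaling 17 fell and 1 rose.

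Lists of genes for mRNA decay, chromatin and RNA polymerase II had more rises than falls, and SR protein and CLK genes were near even. Of 27 ARE-binding and deadenylation factors 22 rose and 3 fell (median 0.66). PNRC1, which acts in mRNA decapping, had 104, 103 and 106 CPM after EBSS, against 10.4, 10.3 and 11.4 CPM in full medium. ZFP36 (3.08 ± 0.12), which binds AU-rich elements, and the antiproliferative genes BTG1 (2.35 ± 0.07) and TOB2 (1.16 ± 0.07) rose too. Of 14 nonsense-mediated decay factors 9 rose and 1 fell, and of 17 snoRNA host RNAs, which nonsense-mediated decay degrades when they are translated, 12 rose and 1 fell, with SNHG7 at 1.36 ± 0.08 and SNHG1 at 0.96 ± 0.06. Of 39 histone and DNA modifying enzymes 30 rose and 4 fell (median 0.59), with the deacetylase SIRT1 (1.96 ± 0.08), the demethylases KDM4A (1.34 ± 0.06) and KDM5B (1.34 ± 0.06) and the DNA dioxygenase TET3 (1.33 ± 0.07). Of 25 RNA polymerase II pausing and elongation factors 15 rose and 5 fell, with BRD3 at 1.10 ± 0.06, and of 19 SR protein and CLK genes 8 rose and 6 fell, with CLK1 at 1.47 ± 0.08. Of the nonsense-mediated decay factors 7 rose and 2 fell with upper-quartile scaling, and of the RNA polymerase II factors 11 rose and 8 fell. The same scaling gave 8 higher and 8 lower for SR protein and CLK genes.

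In the translation machinery, 16 of 26 initiation and elongation factors rose and 5 fell. EIF1 (1.96 ± 0.07), EIF2S2 (1.25 ± 0.08) and EIF4A2 (1.01 ± 0.06) led them. Of 77 ribosomal protein genes 34 rose and 2 fell, but with upper-quartile scaling 5 rose and 4 fell, so their direction depends on the scaling. Their reads may also be shared with processed copies. Of 38 ribosome biogenesis genes 5 rose and 23 fell, with UTP15 at -1.48 ± 0.09 and the RNA polymerase I factor UBTF at -0.64 ± 0.05. The same scaling gave 10 higher and 8 lower for initiation and elongation factors, and 2 higher and 32 lower for ribosome biogenesis.

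Cell cycle genes were more often higher than lower. Of 35 G1/S and replication genes 20 rose and 6 fell, with GINS4 at -1.38 ± 0.07, and of 31 mitotic genes 24 rose and 3 fell, with AURKA at 1.02 ± 0.06 and TTK at 1.31 ± 0.07. With upper-quartile scaling 15 of the first list rose and 10 fell, and 22 of the second rose and 3 fell. Of 24 G1 regulators 14 rose and 6 fell: LIN52 (1.73 ± 0.08) and CCND2 (1.04 ± 0.10) rose, whereas the CDK inhibitor CDKN1A (-0.91 ± 0.08) and, named after its value was seen, cyclin D1 (CCND1, -2.00 ± 0.33) fell. Upper-quartile scaling gave 10 higher and 8 lower for the G1 regulators. Of 11 MYC network genes 6 rose, among them the MYC partner MAX (1.98 ± 0.07) and the antagonists MXD1 (1.94 ± 0.08) and MXD4 (1.55 ± 0.11), and 4 fell. Of 17 replication-dependent histone genes 7 rose and none fell, in the polyadenylated fraction, and 10 were not called. Of these genes 3 rose and none fell with upper-quartile scaling.

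Stress and death regulators were mixed. Of 16 BCL2 family genes 8 rose and 5 fell. The BH3-only genes HRK (3.65 ± 0.20), BBC3 (3.24 ± 0.20) and PMAIP1 (2.62 ± 0.07), which promote apoptosis, rose beside MCL1 (1.13 ± 0.06), which opposes it. Of 16 p53 targets 9 rose and 5 fell, with GADD45A at 1.94 ± 0.12. Of 18 ubiquitin ligase and ubiquitin genes 13 rose and 2 fell, with CBLB (1.97 ± 0.10) and RNF19B (1.94 ± 0.08), while of 30 proteasome subunits 5 rose and 10 fell. Of 23 endoplasmic reticulum folding genes 11 rose, with HERPUD1 (3.50 ± 0.06) and XBP1 (2.15 ± 0.06), and 8 fell. Of 18 cytosolic chaperones 7 rose and 7 fell, with the near-identical HSPA1A (-1.43 ± 0.10) and HSPA1B (-1.38 ± 0.12) on the falling side. With upper-quartile scaling none of the proteasome subunits rose and 16 fell, 9 rose and 10 fell in the endoplasmic reticulum list, 5 rose and 9 fell among cytosolic chaperones and 7 rose and 6 fell among p53 targets.

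Targets of signalling pathways were mixed. The BMP targets ID1 (-2.65 ± 0.10) and ID3 (-2.87 ± 0.14) and the BMP antagonist NOG (-2.78 ± 0.16) fell, and ID1 had 7.31, 9.39 and 8.39 CPM after EBSS, against 53.7, 54.8 and 49.1 CPM in full medium. In the whole TGF-beta and BMP list 8 of 18 rose and 7 fell, TGIF1 (1.63 ± 0.08) among those that rose. Of 18 YAP and SRF targets 12 fell, such as CCN1 (-0.96 ± 0.06), and 5 rose, such as TAGLN (2.67 ± 0.19). Of 27 WNT and NOTCH genes 9 rose and 7 fell, with the ligand JAG1 at 1.77 ± 0.06 and HEYL at -2.01 ± 0.18. Of 20 clock genes 16 rose and 3 fell (median 0.90), with BHLHE40 (1.95 ± 0.11) and NR1D2 (1.78 ± 0.07), and of 22 SIK and cAMP response genes 14 rose and 4 fell, with NR4A1 at 2.31 ± 0.11. Of 16 HIF targets 10 rose and 3 fell: VEGFA rose by 3.11 ± 0.07 and EGLN3 fell (-2.79 ± 0.12). Of 27 secreted factors 11 rose, with ADM2 at 2.41 ± 0.12, and 8 fell. Of 16 NF-kB targets and cytokines 7 rose and 5 fell, with CSF1 at -1.66 ± 0.17, and of 22 intraflagellar transport genes 3 rose and 10 fell. With upper-quartile scaling 6 rose and 6 fell in the NF-kB list, and 3 rose and 17 fell among intraflagellar transport genes. Upper-quartile scaling put the median below 0, from above it, for the BCL2 family (-0.01), endoplasmic reticulum folding (-0.11), fatty acid oxidation (-0.12), SR proteins (-0.10) and secreted factors (-0.05). It also put lower calls ahead of higher ones in secreted factors (10 rose and 11 fell), TGF-beta and BMP targets (6 rose and 9 fell) and WNT and NOTCH genes (8 rose and 12 fell).

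**Figure D5:**
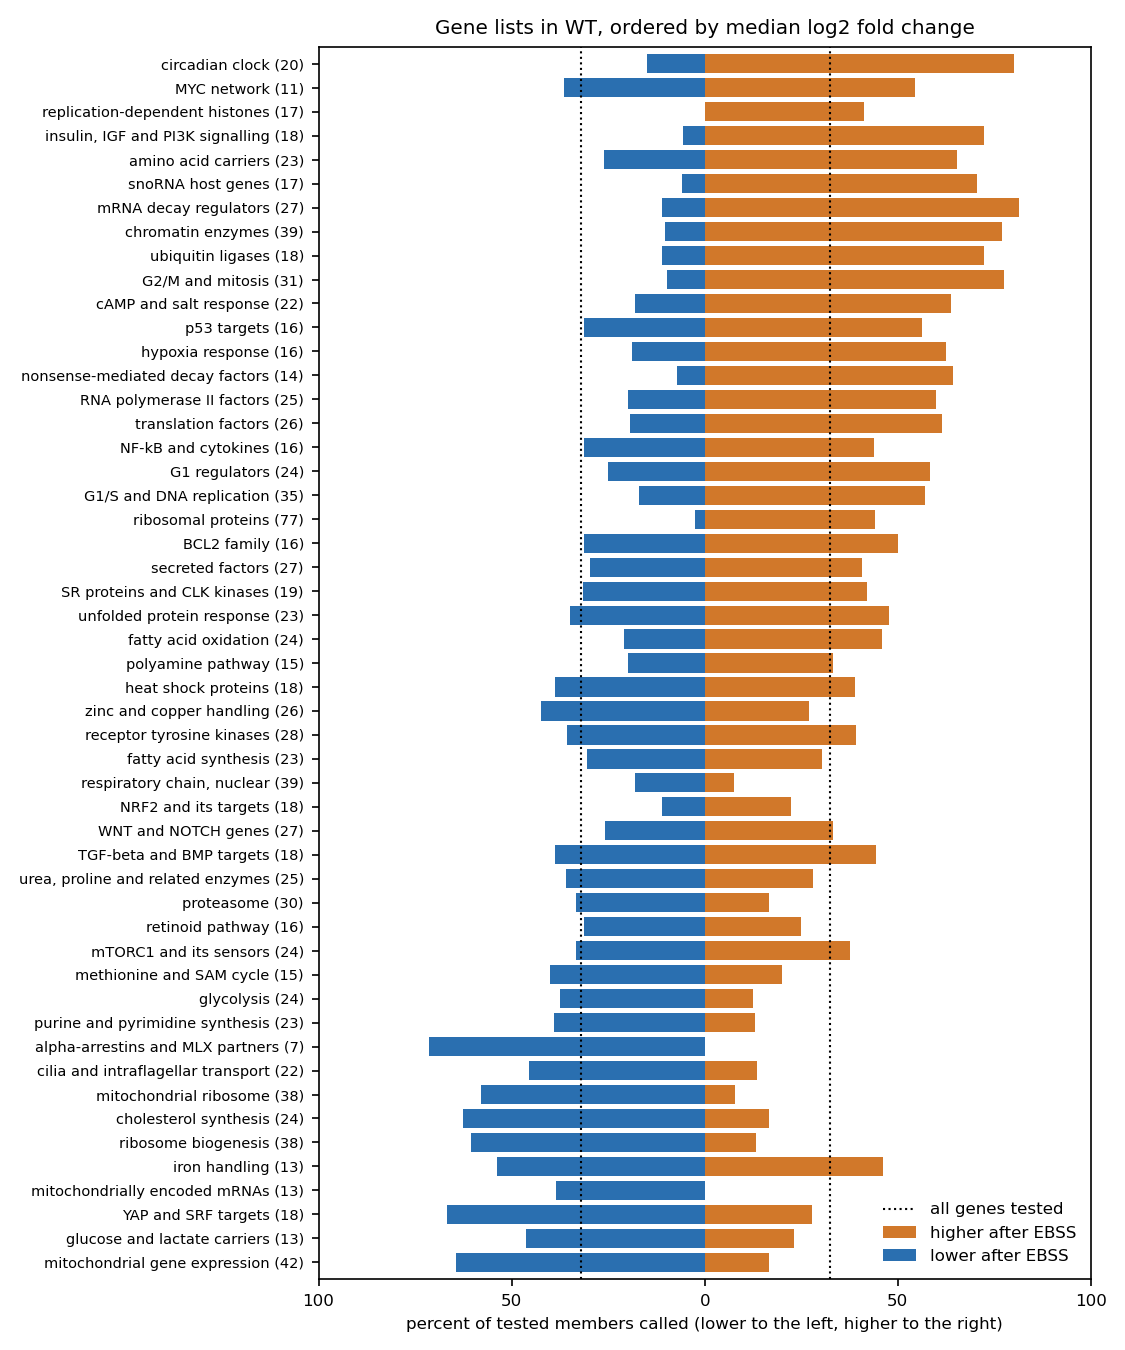
Share of tested members of 51 gene lists that rose (orange, to the right) and fell (blue, to the left) in WT, with the number tested in brackets; dotted lines are the shares of all genes tested, 32.4% and 32.1%. Lists are ordered by their median log2 fold change, the highest at the top.

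The WT response was last set against those of the other lines by testing the difference itself. Of 15179 genes 160 differed from ATG7KO (1.05%), 104 above 0 (0.685%) and 56 below 0 (0.369%), and 1238 differed from the RB1CC1KO-labelled line (8.16%), 831 above 0 (5.47%) and 407 below 0 (2.68%). The balance above and below 0 against ATG7KO was not stable: 148 stood above 0 and 157 below with the replicate block, 132 above and 143 below without WT EBSS replicate 3, and 147 above and 134 below without a filter on low counts. ATG7KO EBSS replicate 3 was far shallower than the rest, with 4892072 reads in genes and 17418 genes detected, where the other libraries of both knockout lines had 14733663 to 26005942 reads. Without it 107 genes differed from ATG7KO. The part of this depth in the 2 unlike counts was not tested. Leaving out 1 library gave between 71 (without ATG7KO EBSS replicate 2) and 275 (without WT EBSS replicate 3) genes for ATG7KO, and between 788 (without WT EBSS replicate 1) and 1588 (without RB1CC1KO EBSS replicate 2) for the RB1CC1KO-labelled line. Both differences share the WT libraries. In full medium ATG7 RNA averaged 15.6 ± 1.30 CPM in WT, against 4.02 ± 0.436 CPM in ATG7KO, and after EBSS 16.1 ± 1.68 CPM in WT, against 10.4 ± 0.533 CPM in ATG7KO (SD, n = 3 each). RB1CC1 RNA averaged 105 ± 10.3 CPM in WT in full medium, against 157 ± 12.7 CPM in the libraries labelled RB1CC1KO, so the RNA level gives no check of that label.

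Above 0, the genes with the largest differences from ATG7KO were SPRY4, DUSP6, PTGS2, F3, TNFRSF12A and TAL1. SPRY4, a feedback inhibitor of receptor signalling, had a log2 fold change of 4.93 ± 0.29 in WT and 1.65 ± 0.22 in ATG7KO, a difference of 3.28 ± 0.41, adjusted p = 4.36e-06. DUSP6, an ERK phosphatase, had 0.12 ± 0.26 in ATG7KO and differed in WT by 2.28 ± 0.37, adjusted p = 0.000446, with 5.96, 6.57 and 5.51 CPM after EBSS, against 1.10, 1.24 and 1.02 CPM in full medium in WT. The prostaglandin synthase gene PTGS2 differed by 2.22 ± 0.45, adjusted p = 0.00839, the tissue factor gene F3 by 1.94 ± 0.18, adjusted p = 9.24e-09 and the receptor gene TNFRSF12A by 1.70 ± 0.30, adjusted p = 0.00122. TAL1, a blood cell transcription factor, had -1.11 ± 0.09 in WT and -2.79 ± 0.17 in ATG7KO (difference 1.68 ± 0.20, adjusted p = 2.67e-06). ATG7 itself had 0.05 ± 0.10 in WT and 1.38 ± 0.13 in ATG7KO (difference -1.33 ± 0.17, adjusted p = 6.07e-06). ADORA1 (-2.17 ± 0.51, adjusted p = 0.0231), NKX2-4 (-2.02 ± 0.51, adjusted p = 0.041), PLXNB3 (-1.38 ± 0.36, adjusted p = 0.0489), GPC6 (-1.16 ± 0.24, adjusted p = 0.0114) and FRMD4B (-1.08 ± 0.24, adjusted p = 0.0173) differed below 0. The calls of ADORA1, FRMD4B, GPC6, NKX2-4, PLXNB3 and PTGS2 were lost without at least 1 of the libraries, with adjusted p-values of up to 0.25.

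Against the RB1CC1KO-labelled line, the immediate early genes FOS and FOSB rose less in WT. Their WT full medium libraries were uneven, with 1.46, 1.49 and 2.99 CPM for FOS and 2.92, 2.23 and 8.43 CPM for FOSB, the third library highest in both. FOS had a log2 fold change of 6.77 ± 0.15 in WT and 8.78 ± 0.16 in that line (difference -2.02 ± 0.33, adjusted p = 0.000405), and FOSB had 2.95 ± 0.30 in WT and 5.57 ± 0.33 in that line (difference -2.62 ± 0.51, adjusted p = 0.00695). LSMEM1 (-2.04 ± 0.60, adjusted p = 0.0272), HCLS1 (-1.95 ± 0.30, adjusted p = 4.1e-05), KCTD8 (-1.64 ± 0.43, adjusted p = 0.0137) and STXBP2 (-1.58 ± 0.42, adjusted p = 0.0137) also differed below 0, and of these LSMEM1, KCTD8 and STXBP2 lost the call without at least 1 library (adjusted p up to 0.111). MYH15 had 5.31 ± 0.25 in WT and 3.16 ± 0.17 in that line (difference 2.14 ± 0.37, adjusted p = 0.000218). The mitochondrial PARS2 fell by less in WT, with -2.61 ± 0.15 in WT and -4.53 ± 0.19 in that line (difference 1.92 ± 0.28, adjusted p = 1.84e-05). MED7 (1.73 ± 0.34, adjusted p = 0.000832), RAB42 (1.96 ± 0.44, adjusted p = 0.00332), CLIP3 (1.67 ± 0.42, adjusted p = 0.0088) and BLOC1S3 (1.66 ± 0.22, adjusted p = 7.87e-06) differed above 0.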

How the data were processed

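Polyadenylated RNA was isolated with beads, a directional kit was used and reads were single-end, 75 bp long, per the labels' protocols. The values are raw counts: the authors deposited whole numbers of reads for 63677 Ensembl genes per library, and 5 summary lines that were kept out of library sizes and tests. Tools named in the submitters' processing notes are HTSeq 0.6.1p1, STAR 2.4.2a, Picard, DESeq2 and edgeR, with the build GRCh37 (hg19). Their roles, the annotation release and the strand setting were not given in the sources used. Gene names, types, exons and neighbours came from GENCODE 29 on GRCh38, which matched 52526 identifiers, and promoters from RefSeq GRCh38.p14.

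Counts of all 18 libraries were fitted with edgeR 4.0.16 in R 4.3.3: filterByExpr, TMM scaling, 1 mean for each of the 6 groups, robust quasi-likelihood dispersion and F tests, Benjamini-Hochberg adjusted over 15179 genes. The standard error is the log2 fold change divided by the square root of F. TPM used the annotated exon length. The fit was also run on simulated counts with a constant spread. Few genes changed in them, evenly in both directions, so they leave the dependence on scaling unexamined. Summed levels of neighbours and markers are CPM without TMM scaling. Alternatives were upper-quartile and DESeq2 scaling, filters, DESeq2 1.42.0, the compared groups alone, a replicate block and leaving out libraries; leaving out libraries of the other lines, and the exon, distance, zinc finger and gene type classes under other scalings, were added after seeing the data. Of 1354 list entries 1346 were matched. The genes named are the 4 markers, the 20 protein-coding and 5 other genes with the largest changes in each direction (mean log2 CPM of at least 1, no overlap between groups), the 10 with the largest TPM change in each direction, up to 4 called members with the smallest p per list and 6 genes in each direction per difference of responses, with IRS2 and CCND1 added. Genes of the stress and immediate early lists were partly left out, and some genes that the rule names are not reported here. The members and lists were chosen with earlier results of these data known.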

Additional observations from a re-analysis of the deposited data

Results flagged for a closer look

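Among the genes named in the text, the response of WT and that of another line differed in 59 results over 54 genes, by edgeR's quasi-likelihood test of the difference itself (adjusted p below 0.05 over all genes). Values are differences of log2 fold changes, WT response minus the response of the other line. The cause of these differences was not tested, and not all of them were examined under other processing. Below 0, the WT response differed from the RB1CC1KO-labelled one in FOSB (-2.62), LSMEM1 (-2.04), FOS (-2.02), HCLS1 (-1.95), KCTD8 (-1.64), STXBP2 (-1.58), TFRC (-1.38), CDKN1A (-1.26) and PYGM (-1.22). The middle of the set below 0 held ID1 (-0.91), EGR1 (-0.89), DDIT4 (-0.84), ID3 (-0.79), SESN2 (-0.69), EGLN3 (-0.58), STC2 (-0.54), SLC7A5 (-0.51) and HERPUD1 (-0.48). Closer to 0 were CLK1 (-0.47), VEGFA (-0.46), FN1 (-0.45), BTG1 (-0.40), SLC30A1 (-0.35), SLC3A2 (-0.33), EIF4A2 (-0.31) and ACTB (-0.28). Differences below 0 against ATG7KO were ADORA1 (-2.17), NKX2-4 (-2.02), PLXNB3 (-1.38), ATG7 (-1.33), GPC6 (-1.16), FRMD4B (-1.08), TFRC (-0.63), GPT2 (-0.42) and XBP1 (-0.33). Against the RB1CC1KO-labelled line, values above 0 were MYH15 (2.14), RAB42 (1.96), PARS2 (1.92), MED7 (1.73), CLIP3 (1.67), BLOC1S3 (1.66), LRRC66 (1.58), TAGLN (0.90) and MARS2 (0.82). Smaller values above 0 against that line were TAL1 (0.71), UMPS (0.63) and F3 (0.60). Against ATG7KO, differences above 0 were SPRY4 (3.28), DUSP6 (2.28), PTGS2 (2.22), F3 (1.94), TNFRSF12A (1.70), TAL1 (1.68), TAGLN (1.24), CCN1 (1.07) and EGR1 (0.94). A second set above 0 against ATG7KO was TGIF1 (0.85), CHAC1 (0.84) and MCL1 (0.41). The log2 fold change of the transferrin receptor gene TFRC was -1.23 in WT and 0.15 in the RB1CC1KO-labelled line, and that of CDKN1A was -0.91 in WT and 0.35 in that line.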

How the results depend on the processing

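The count of 9788 genes called in WT ranged from 8619 to 10105 over 13 alternatives, and from 9209 to 9396 when 1 WT library was left out. DESeq2 gave 9552. Alternatives were examined for 170 results over 161 named genes, which do not include all of the 59 flagged differences. Among these results no WT fold change changed sign while called, and 38 of 2351 values lost their call, all in differences of responses. PLXNB3 against ATG7KO was also lost with upper-quartile scaling (adjusted p = 0.0518). Replicate numbers showed no pairing in WT: deviations of same-numbered WT libraries correlated at 0.033, 0.011 and -0.037. In the other lines such correlations lay between -0.059 (ATG7KO replicate 2) and 0.119 (RB1CC1KO replicate 2), and so few libraries cannot settle whether the numbers pair them. With the replicate block 9889 genes were called in WT, 305 in the difference from ATG7KO and 1582 in that from the RB1CC1KO-labelled line. The difference from ATG7KO was the least stable count, with 160 genes as reported and 281 without a filter on low counts. It fell to 71 and 73 without ATG7KO EBSS replicate 2 and WT EBSS replicate 1, to 92 without ATG7KO full medium replicate 1 or 2, to 94 without WT EBSS replicate 2 and to 102 and 101 without WT full medium replicates 1 and 3. It was 275 without WT EBSS replicate 3 and 274 without ATG7KO EBSS replicate 1. The difference from the RB1CC1KO-labelled line, 1238 genes, was 788 without WT EBSS replicate 1, 824 without RB1CC1KO full medium replicate 2 and at most 1588 without RB1CC1KO EBSS replicate 2. The cause was not tested. Medians of 53 of 55 lists moved by more than the spread between libraries with upper-quartile scaling, and none did with DESeq2. Depth limits the genes under 1 CPM in one group, whose fold changes rest on few reads.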
